A study of Zea mays with 18 samples.

Results

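The subject is the net change in gene expression of ZmCCT(+) maize anthers between the first and the last developmental window sampled, S3-4 and S7. It was taken as the 3 S7 libraries of that genotype against the 3 S3-4 libraries, 6 of the 18 libraries of the series, with the middle window S5-6 left out of the contrast. The study sequenced RNA from anthers of plants with an active ZmCCT10 transgene, ZmCCT(+), and of control plants without it, ZmCCT(-), at all 3 windows. The labels give no plant age and no promoter or number of lines behind the transgene, and they do not say whether anthers of several plants were pooled or whether replicate libraries stem from different plants. The p-values therefore measure only how far these libraries spread, and that spread may be technical.

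Maize anthers begin as small groups of dividing cells that give rise to the wall layers, among them the nutritive tapetum, and to pollen mother cells, which go on to meiosis. ZmCCT10 encodes a CCT-domain protein known as a repressor of maize flowering under long days. Anthers of grasses are also known for phased small RNAs, whose production is started by the microRNA families miR2118 before meiosis and miR2275 around meiosis.

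Most genes in the deposited tables carry a Zm00001d identifier only, with no name in the tables or in the gene table used here. The transgene, the tapetum and the pollen mother cells could therefore not be checked by marker genes, and genes are described by identifier, position, size of change and behaviour in the control. Positions are quoted as deposited, on a genome build that the sources used here do not give. Total counts ran from 14846974 to 19566127 in the 6 libraries. Levels are CPM, counts relative to the library total after TMM scaling, which sets libraries level on the assumption that most genes do not change. TMM factors were 0.845 to 0.854 in S3-4 ZmCCT(+) and 1.06 in each S7 ZmCCT(+) library. Because whole anthers were sequenced, fewer cells of a type and less RNA per cell cannot be told apart.

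Most of the transcriptome of ZmCCT(+) anthers had shifted by S7. Of 24694 genes tested, 20236 (81.9%) passed edgeR's quasi-likelihood test with an adjusted p under 0.05, 9728 of them higher and 10508 lower at S7. At least 2-fold changes were found in 5182 genes that rose (21.0%) and 5004 that fell (20.3%). Of these, 843 rose 8-fold or more (3.41%) and 944 fell 8-fold or more (3.82%). Fitted folds of genes with few counts at one end depend on the prior count. With each group held at no less than 3 counts over its 3 libraries, 776 genes rose and 926 fell by 8-fold or more. The absolute log2 fold change had a median of 0.79 over all tested genes. The even balance of rises and falls depends on the scale. With the counts 48.07% of all calls were higher at S7, but 60.8% were with limma-trend on log2(TPM + 1). TPM is abundance per length of transcript. TPM was used without TMM scaling, so the unit and the scaling changed together, and their separate parts were not tested. On that scale the median over all genes lay 0.241 higher (log2). With that setting 5188 genes rose and 3239 fell at least 2-fold, so the balance of 2-fold changes depends on the scale as well.

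Control anthers moved less over the same windows. There 15984 of 24694 genes passed (64.7%), with 2262 rising by 2-fold or more (9.16%) and 1313 falling by as much (5.32%). The 8-fold changes numbered 321 upwards (1.30%) and 89 downwards (0.360%). The median absolute log2 fold change was 0.35, against 0.79 in ZmCCT(+). With groups held at 3 counts the 8-fold numbers in the control were 292 and 73. Of the 926 genes that fell 8-fold or more in ZmCCT(+) on that count, 14 lie in a single stretch of chromosome 3 described below, and 912 remain without it. Held the same way, 64-fold rises numbered 20 in ZmCCT(+) and 37 in the control, and 64-fold falls 55 (44 without the stretch) and 0. The difference of the net changes was tested gene by gene, and 18283 genes (74.0%) passed in edgeR's quasi-likelihood test. The log2 fold change was at least 1 higher in ZmCCT(+) for 4371 of them (17.7%) and at least 1 lower for 4833 (19.6%).

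**Figure D1:**
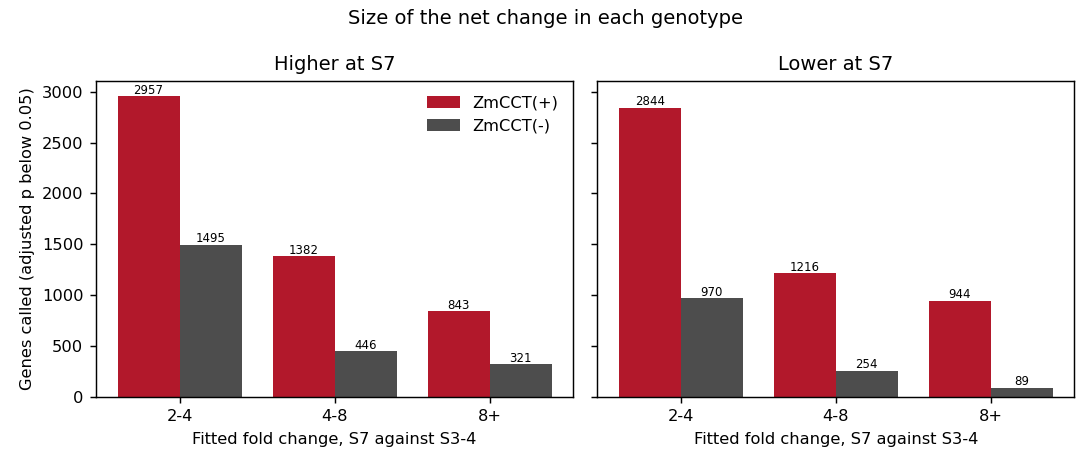
Number of called genes (vertical axis) by size of the fitted fold change from S3-4 to S7 (horizontal axis), for genes higher and lower at S7, in ZmCCT(+) in red and ZmCCT(-) in grey. Falls of 8-fold or more numbered 944 in ZmCCT(+) and 89 in the control, and rises 843 and 321; with groups held at 3 counts the falls were 926 and 73.

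The direction of the ZmCCT(+) change was followed in the control only in part. Of the 5182 genes risen by 2-fold or more in ZmCCT(+), 924 also rose at least 2-fold in the control, which is 17.8% of the ZmCCT(+) genes and 40.8% of the control's. Of the 5004 that fell, 937 also fell in the control, which is 18.7% of the ZmCCT(+) genes and 71.4% of the control's. Over all tested genes, 9.16% rose and 5.32% fell at least 2-fold in the control, against 21.0% and 20.3% in ZmCCT(+). Another 392 genes fell in ZmCCT(+) and rose in the control, each by at least 2-fold, which is 7.83% of the 5004. The reverse held for 74, which is 1.43% of the 5182. Both shares lay below the control's 9.16% and 5.32% over all tested genes. The difference passed for every gene of both sets, but their choice by opposite calls in the same fit made that nearly certain. Among the genes that rose in ZmCCT(+), 3694 (71.3%) had a called difference of at least 2-fold above the control's change. Among those that fell, 3497 (69.9%) had one below it. Over all tested genes these shares were 17.7% and 19.6%. The difference contains the ZmCCT(+) change by which the genes were chosen, so high shares follow in part from the choice. The net changes of the genotypes share no library, and across 24694 genes they correlated at Pearson's r of 0.313 and Spearman's rho of 0.302. Genes are not independent replicates, so this is a description.

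**Figure D2:**
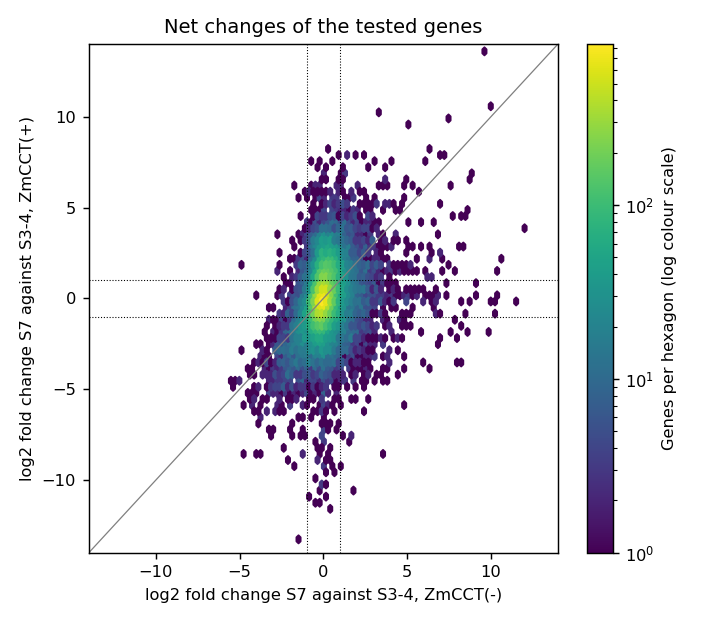
Log2 fold change from S7 against S3-4 for each of 24694 tested genes in ZmCCT(-) (horizontal axis) and ZmCCT(+) (vertical axis), coloured by the number of genes per hexagon on a log scale, with dotted lines at 2-fold and a grey line of equality. The cloud is taller than it is wide, with a median absolute change of 0.79 on the vertical and 0.35 on the horizontal axis.

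The more a gene had risen in ZmCCT(+), the more it tended to have risen in the control. The control's median log2 fold change was 0.28 for 4339 genes that ZmCCT(+) raised by 1 to 3 on the log2 scale, 0.48 for 706 genes raised by 3 to 5, and 1.19 for 137 genes raised by more than 5. In the last set 73 genes (53.3%) rose at least 2-fold in the control. For the losses the control's median did not keep growing with the size of the fall. The control's median was -0.18 for 4060 genes that fell by 1 to 3, -0.64 for 763 genes that fell by 3 to 5, and -0.56 for 181 genes that fell by 5 or more. The quartiles of the control's change in that last set were -2.41 and 0.03, and 66 of the 181 genes (36.5%) fell at least 2-fold in the control. All these classes use fitted folds, which depend on the prior count for genes with few counts at one end. The 181 genes include 13 with fitted falls of 64-fold or more from the chromosome 3 stretch described below. Medians without that stretch were not computed.

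Both genotypes ended closer together than they started. Library by library, log2 CPM at S3-4 of ZmCCT(+) correlated with S7 of the same genotype at r from 0.831 to 0.836 across genes, and with S3-4 of the control at 0.832 to 0.836. At S7 the genotypes correlated at 0.939 to 0.942, and the control's own S3-4 and S7 at 0.943 to 0.946. Replicates within a group lay between 0.988 and 0.991. The median absolute log2 difference between genotypes was 0.740 at S3-4, with 9759 genes at least 2-fold apart, and 0.253 at S7, with 2103 such genes. S7 ZmCCT(+) libraries were also close to the S3-4 control, at r from 0.925 to 0.926. So of the 4 groups, S3-4 ZmCCT(+) stood apart, and the net change in ZmCCT(+) ran from that group.

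The genes that rose at least 2-fold in ZmCCT(+) made up 4.91% to 4.94% of all counts at S3-4 and 22.02% to 22.07% at S7. In the control the same genes held 19.6% to 19.8% and then 24.7% to 24.8%. The genes that fell held 38.3% to 39.3% of the ZmCCT(+) counts at S3-4 and 13.3% to 13.4% at S7, against 17.6% to 17.9% and 12.5% to 12.6% in the control. For both sets the outlying share was that of the 3 S3-4 ZmCCT(+) libraries. The ZmCCT(+) shares describe genes that were chosen on these libraries, while the control shares were not used in the choice.

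The most abundant transcripts were replaced as well. Of the 10 genes with the highest mean TPM at S3-4 in ZmCCT(+), at 2234 to 12418 TPM, 8 fell at least 2-fold and 1 was still among the 10 highest at S7. Of the 100 highest at S3-4, 71 fell and 3 rose, and 34 remained among the 100 highest. At S7 the 10 highest genes had 1832 to 7638 TPM, and 7 of them had risen and 0 had fallen at least 2-fold. Of the 100 highest at S7, 50 had risen and 9 had fallen. Beside the 21.0% and 20.3% of all tested genes that rose and fell 2-fold, these are descriptions, since a gene that is high in one group is more likely to be higher there than elsewhere.

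Losses were more frequent among genes with a short span on the chromosome. Among the 6176 tested genes with the shortest spans, 70 to 1783 bases, 31.1% fell and 21.96% rose at least 2-fold in ZmCCT(+), with a median log2 fold change of -0.21. Among the 6174 with the longest spans, 5978 to 128402 bases, 11.5% fell and 17.6% rose, and the median was 0.00. The control went the other way, with a median of 0.21 for the short genes and -0.12 for the long ones. Weakly expressed genes changed more often in both directions: of the 6174 genes of lowest mean CPM 29.997% fell and 23.7% rose, and of the 6174 highest 16.2% fell and 17.3% rose. The low-count filter admits a gene of low mean that has enough counts in only some libraries, and the mean includes the groups compared. The rates by mean CPM are therefore not independent of the choice of genes. The part of expression level in the pattern by span was not tested.

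The middle window shows where the net change was made. Of the 5182 genes that rose, 4978 (96.1%) were nearer to their S7 than to their S3-4 level on the log2 scale at S5-6, and 4523 (87.3%) were within 2-fold of their S7 level. Of the 5004 that fell, 4512 (90.2%) were nearer to S7 and 3474 (69.4%) were within 2-fold of S7. An overshoot was seen in 1086 of the genes that fell (21.7%), which were at least 2-fold lower at S5-6 than at S7, and in 512 of those that rose (9.88%), which were at least 2-fold higher. The contrast of the ends also missed genes that went out and came back. Among 14508 genes without a called 2-fold net change, 2.57% were at least 2-fold above both ends at S5-6 and 3.29% (478 genes) at least 2-fold below both. These counts use group means and carry no test.

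By the rule for naming genes, the strongest rises in ZmCCT(+) were those of Zm00001d024119 (chromosome 10, 46971393 to 46973252) and Zm00001d020944 (chromosome 7, 137377035 to 137378060). Zm00001d024119 had no count in any of the 3 S3-4 libraries and 1315, 1661 and 1569 counts at S7, or 83.8 ± 1.96 CPM (SD, n = 3). Against a floor of 3 counts over the 3 libraries it was at least 1307-fold higher at S7 (edgeR adjusted p = 4.74e-75). The control rose too, from 0.513 ± 0.151 to 386.1 ± 12.8 CPM, so the S7 level in ZmCCT(+) stayed below the control's.

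Zm00001d020944 likewise had no count at S3-4 and 169, 243 and 170 counts at S7, 10.7 ± 1.35 CPM, at least 166-fold higher (edgeR adjusted p = 2.46e-38). In the control it went from 4 counts over the 3 libraries to 88.7 ± 2.53 CPM. The ZmCCT(+) and control libraries of S7 did not overlap for either gene, and both genes were already up at S5-6 in ZmCCT(+), at 107.5 and 14.1 CPM. The difference of the net changes passed for Zm00001d024119 (edgeR adjusted p = 0.0032) and not for Zm00001d020944 (edgeR adjusted p = 0.424). With a group at 0 its fitted size depends on the prior count, and its sign changed with the scale. By limma-trend on log2(TPM + 1) it passed below 0 for both genes. It was -1.44 for Zm00001d024119 (adjusted p = 1.98e-12) and -2.68 for Zm00001d020944 (adjusted p = 4.32e-14). For Zm00001d024119 the edgeR result held in 23 of 24 alternatives.

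The deepest falls had a different course. Zm00001d024543 (chromosome 10, 77529347 to 77533684) had 3717, 3640 and 4215 counts at S3-4 and 1, 0 and 0 at S7. The ratio of S3-4 to S7 was 13425, with a 95% exact (Clopper-Pearson) interval for counting error from 2409 to 530323 (edgeR adjusted p = 3.47e-89). It stood at 247 ± 5.87 CPM (SD, n = 3) at S3-4 and still at 113 ± 4.82 at S5-6. The control kept it on, at 452 ± 1.31 CPM at S3-4 and 162 ± 4.45 at S7, and the difference of the net changes passed (edgeR adjusted p = 2.56e-74). With 1 count at S7 its size is not fixed by these data and ran from -13.69 to -5.53 on the log2 scale over the alternatives tried.

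Zm00001d044461 (chromosome 3, 228815712 to 228816647) had 297, 317 and 324 counts at S3-4 and none at S7. It was at least 363-fold lower at S7 than its 20.1 ± 0.890 CPM at S3-4 (edgeR adjusted p = 6.10e-52). In the control it rose from 57.4 ± 2.46 to 71.0 ± 1.09 CPM, and in ZmCCT(+) at S5-6 it was at 60.0 ± 0.660 CPM. The 3 S7 ZmCCT(+) libraries stood apart from the other 15. This gene lies in the chromosome 3 stretch described below, where lost expression and an absent segment cannot be told apart.

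Genes with counts in every library of all 4 groups show how the genotypes differed without any zero. Zm00001d021447 (chromosome 7, 152381542 to 152384274) had 12, 20 and 15 counts in S3-4 ZmCCT(+) and 1453, 1902 and 1748 at S7, or 1.01 ± 0.285 and 94.0 ± 1.74 CPM (log2 6.54 ± 0.10 SE). The control held it at 79.4 ± 3.79 and 90.3 ± 3.36 CPM, and the difference was 6.35 ± 0.12 on the log2 scale (edgeR adjusted p = 7.60e-57). Zm00001d043235 (chromosome 3, 192719123 to 192721294) went from 52, 39 and 72 counts to 2248, 2859 and 2503, or from 3.46 ± 0.869 to 140 ± 2.93 CPM (log2 5.33 ± 0.07 SE). Its control level was 151 ± 1.76 CPM at S3-4 and 141 ± 5.52 at S7, and the difference was 5.43 ± 0.08 (edgeR adjusted p = 1.03e-69). For both genes the S3-4 ZmCCT(+) libraries were low and the other 3 groups lay close together.

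The opposite pattern was led by Zm00001d034017 (chromosome 1, 281247257 to 281250037). Its counts went from 682, 638 and 650 at S3-4 to 55, 86 and 90 at S7 in ZmCCT(+), or from 42.2 ± 2.98 to 4.22 ± 0.719 CPM (log2 -3.31 ± 0.11 SE), while the control rose from 0.840 ± 0.1999 to 7.56 ± 0.340 CPM. The difference was -6.47 ± 0.21 on the log2 scale (edgeR adjusted p = 7.89e-45). Zm00001d011461 (chromosome 8, 151002173 to 151002925) fell from 276, 210 and 274 counts to 26, 34 and 22, or from 16.2 ± 2.14 to 1.51 ± 0.266 CPM, and rose in the control from 1.601 ± 0.456 to 6.70 ± 0.397 CPM (difference -5.47 ± 0.25 SE, edgeR adjusted p = 1.18e-34). For both genes the S3-4 ZmCCT(+) libraries were the highest of the 12, and no ZmCCT(+) library of S3-4 overlapped one of S7.

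**Figure D3:**
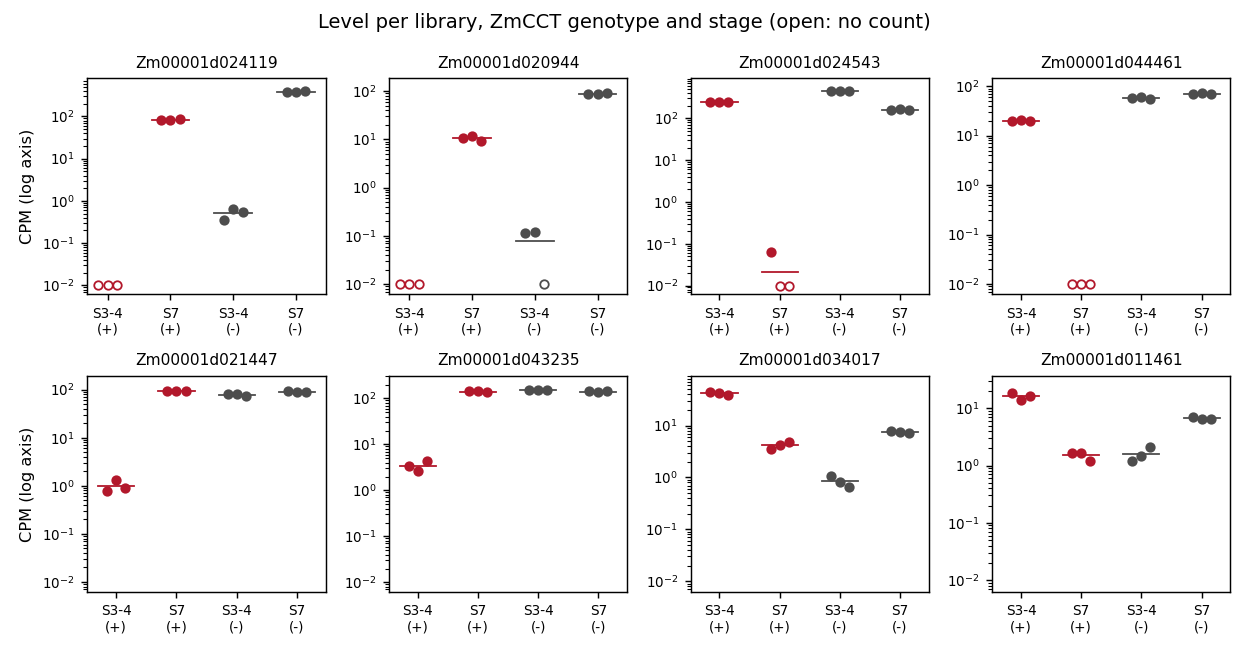
CPM on a log axis (vertical) in each library of 4 groups (horizontal), S3-4 and S7 of ZmCCT(+) in red and of ZmCCT(-) in grey, for the 8 genes chosen by the naming rule, with horizontal lines at group means and open points for no count. Zm00001d021447 and Zm00001d043235 are low in S3-4 ZmCCT(+) alone, and Zm00001d044461 has no count in S7 ZmCCT(+) alone.

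Some genes passed between silence and expression. A gene counted as silent in a group with no more than 3 counts summed over the libraries, and as expressed with 10 or more counts in each library. In ZmCCT(+), 85 of the 22140 genes expressed at S7 were silent at S3-4 (0.384%), and 124 of the 22012 genes expressed at S3-4 were silent at S7 (0.563%). In the control 77 of 22444 genes came on (0.343%), a similar number, but only 4 of 21811 went off (0.0183%). The genotypes shared 3 genes that came on and 0 that went off. Most of these genes were weakly expressed, with a median of 1.35 CPM at S7 for those that came on and 1.94 CPM at S3-4 for those that went off. At least 10 CPM was reached by 4 of the former and 11 of the latter. The counts depend on the limits: with 30 counts per library for expression, 25 came on and 52 went off.

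The genes that came on in ZmCCT(+) were mostly expressed in the S7 control, 72 of 85, and 73 of 85 were already expressed at S5-6 in ZmCCT(+). At S3-4 in the control 36 were expressed and 8 silent. The matching shares over all genes expressed at S7 in ZmCCT(+) are not given here, so these counts are descriptions. Genes that went off were more mixed. Of the 124, 51 were expressed and 41 silent at S3-4 in the control, 39 and 40 at S7 in the control, and 41 and 40 at S5-6 in ZmCCT(+), the rest lying between the limits. In the control 37 of them were expressed at both ends and 28 were silent at all 3 stages.

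Chromosome 3 held 30 of the 124 genes that went off, or 1.26% of its 2383 genes expressed at S3-4, while the other chromosomes had 0.304% to 0.693%. Of these 30, 13 lay in a single stretch of 763 kb, at 228815712 to 229578470, which holds Zm00001d044461. The tables list 25 genes there. Of the 14 expressed at S3-4 in ZmCCT(+), 13 were silent at S7 and the remaining one had 4 counts. The 14 genes summed to 7322 counts at S3-4, 33704 at S5-6 and 8 at S7 in ZmCCT(+), the last as 3, 4 and 1 in the 3 libraries. In the control they summed to 27623 at S3-4 and 27553 at S7.

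The edges of the stretch were sharp. The 10 expressed genes on each side had 0.822 to 88.2 CPM at S7 in ZmCCT(+). Within the stretch the 14 genes ran from 1.72 to 43.3 CPM at S3-4 and from 10.8 to 85.2 CPM at S5-6 in ZmCCT(+), and from 10.03 to 78.8 CPM at S7 in the control. Each of the 14 was lower at S3-4 in ZmCCT(+) than at S3-4 in the control, before its near absence at S7. Among the other listed genes of the stretch, Zm00001d044487 had 12 counts at S3-4 and 10 at S7 in ZmCCT(+). Lost expression, a segment absent from the plants sampled and reads that did not map cannot be told apart from counts, and the genes of this stretch do not count as separate losses. Adjacent genes that went off together were otherwise rare, with a pair on chromosome 5 at 52378759 to 52606562 and another at 161761064 to 162110125.

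**Figure D4:**
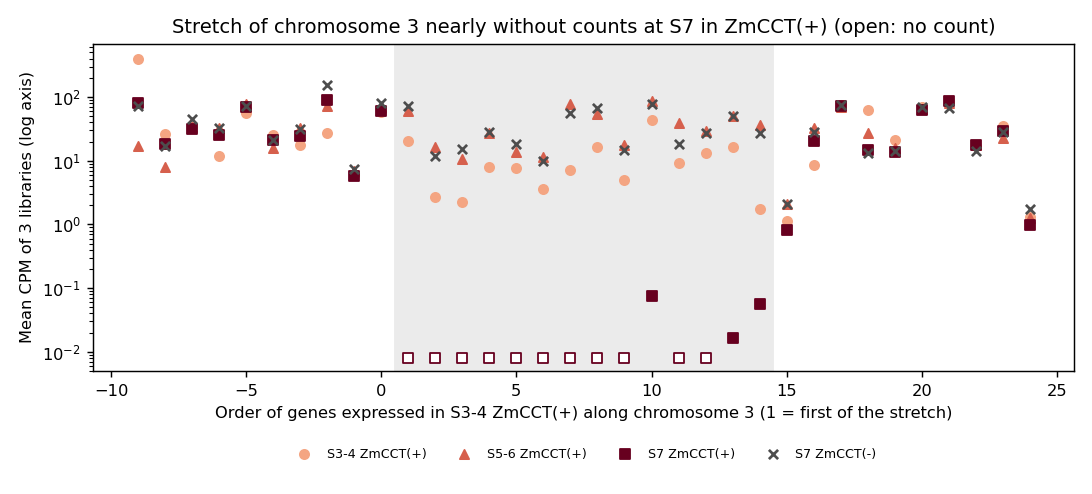
Mean CPM of 3 libraries on a log axis (vertical) for the expressed genes of the chromosome 3 stretch (grey band) and 10 on each side, in chromosomal order (horizontal), in S3-4, S5-6 and S7 of ZmCCT(+) and S7 of ZmCCT(-), with open points for no count. The 14 genes of the band have 8 counts in all at S7 in ZmCCT(+), while their neighbours have 0.822 to 88.2 CPM.

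MicroRNA precursors were sparse in these libraries, which were made from mRNA. Of 154 listed, 126 had no count at either end in ZmCCT(+) and 7 had enough counts to test. Of those 7, 3 rose at least 2-fold, 1 fell at least 2-fold and 1 more passed below 2-fold, beside the 81.9% of all genes that passed. No mature sequence is shown, because none of the files used here holds one, and a precursor count is not a level of the mature microRNA.

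The 2 tested precursors of the miR2275 family, whose microRNA starts phased small RNAs around meiosis, had no count at S3-4 in ZmCCT(+). zma-MIR2275b (chromosome 4, 31734063 to 31734144) had 10, 28 and 16 counts at S7, or 0.965 ± 0.382 CPM (SD, n = 3), at least 15.04-fold higher (edgeR adjusted p = 9.40e-10). In the control it went from 0.585 ± 0.115 to 1.36 ± 0.0703 CPM, and the difference passed (edgeR adjusted p = 3.39e-05). zma-MIR2275c (chromosome 10, 70573557 to 70573793) had 7, 11 and 7 counts at S7, 0.457 ± 0.0807 CPM, at least 7.12-fold higher (edgeR adjusted p = 3.24e-07).

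The control reached 22.2 ± 1.02 CPM of zma-MIR2275c at S7 from 6 counts at S3-4. With no count at S3-4 the ZmCCT(+) rise has only a lower bound, and edgeR did not call the difference of the net changes (adjusted p = 0.683). That result held in 21 of 24 alternatives. The rest called a smaller rise in ZmCCT(+): limma-voom (log2 -3.37, adjusted p = 0.000575) and limma-trend on TPM with pseudocounts 1 and 0.1 (-4.30 and -3.42). At S5-6 zma-MIR2275c stood at 3.24 ± 0.215 CPM in ZmCCT(+), above its S7 level. zma-MIR2275b and its neighbour Zm00001d049480 came on as a pair on chromosome 4, at 31734063 to 31741600, and whether these are separate changes was not tested. zma-MIR2275a, which lies directly before them, had 1 count at S7 and none at S3-4 in ZmCCT(+).

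The tested precursors of the miR2118 family, which acts before meiosis, missed the threshold. zma-MIR2118c went from 13, 13 and 11 counts to 7, 5 and 11 (log2 -0.89 ± 0.47 SE, edgeR adjusted p = 0.0720), although it passed by limma-voom and without S7 replicate 3. zma-MIR2118e went from 29, 16 and 39 counts to 17, 30 and 22 (log2 -0.50 ± 0.30 SE, edgeR adjusted p = 0.122), and passed without S3-4 replicate 2. In CPM the S3-4 and S7 libraries overlapped for zma-MIR2118e and not for zma-MIR2118c. zma-MIR2118a and zma-MIR2118f were too sparse to test, at 13 and 13 counts and at 19 and 18 counts over the 3 libraries of S3-4 and S7.

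Precursors of miR156, a family that targets SPL transcription factors, went in opposite directions. zma-MIR156d fell from 15, 9 and 13 counts to 2, 7 and 5, or from 0.791 ± 0.196 to 0.249 ± 0.112 CPM (log2 -1.597 ± 0.51 SE, edgeR adjusted p = 0.00333). The control rose from 6 to 20 counts, and the difference was -3.20 ± 0.86 (edgeR adjusted p = 6.23e-04). zma-MIR156j rose from 0, 1 and 0 counts to 4, 9 and 6, a ratio of 16.4 with an exact interval from 2.60 to 680 for counting error (edgeR adjusted p = 0.00102). Its difference from the control, which went from 17 to 39 counts, missed the threshold (edgeR adjusted p = 0.0569). It missed in 17 of 23 alternatives too and passed in the rest, among them limma-voom (adjusted p = 0.0345). For both precursors the ZmCCT(+) libraries of S3-4 and S7 did not overlap, though the calls rest on few counts.

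zma-MIR168a, the precursor of the microRNA that targets ARGONAUTE1 transcripts, was the most abundant of the 7 at S3-4 and at S7 in ZmCCT(+). At S5-6, where zma-MIR2275c stood at 3.24 CPM, it was lower than at both ends, at 1.85 ± 0.487 CPM. It had 104, 96 and 117 counts at S3-4 and 64, 112 and 110 at S7 in ZmCCT(+), or 6.77 ± 0.338 and 5.21 ± 1.02 CPM (log2 -0.37 ± 0.16 SE, edgeR adjusted p = 0.0300). In CPM every S3-4 library lay above every S7 library. The S7 replicate 1 was the lowest of the 6, and without it the call was lost (adjusted p = 0.215), as it was without S3-4 replicate 1 or 3 (0.0628 and 0.0845, all edgeR). The control rose from 59 to 214 counts. The difference between genotypes passed in every alternative tried (log2 -2.13 ± 0.28 SE, edgeR adjusted p = 1.02e-10).

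**Figure D5:**
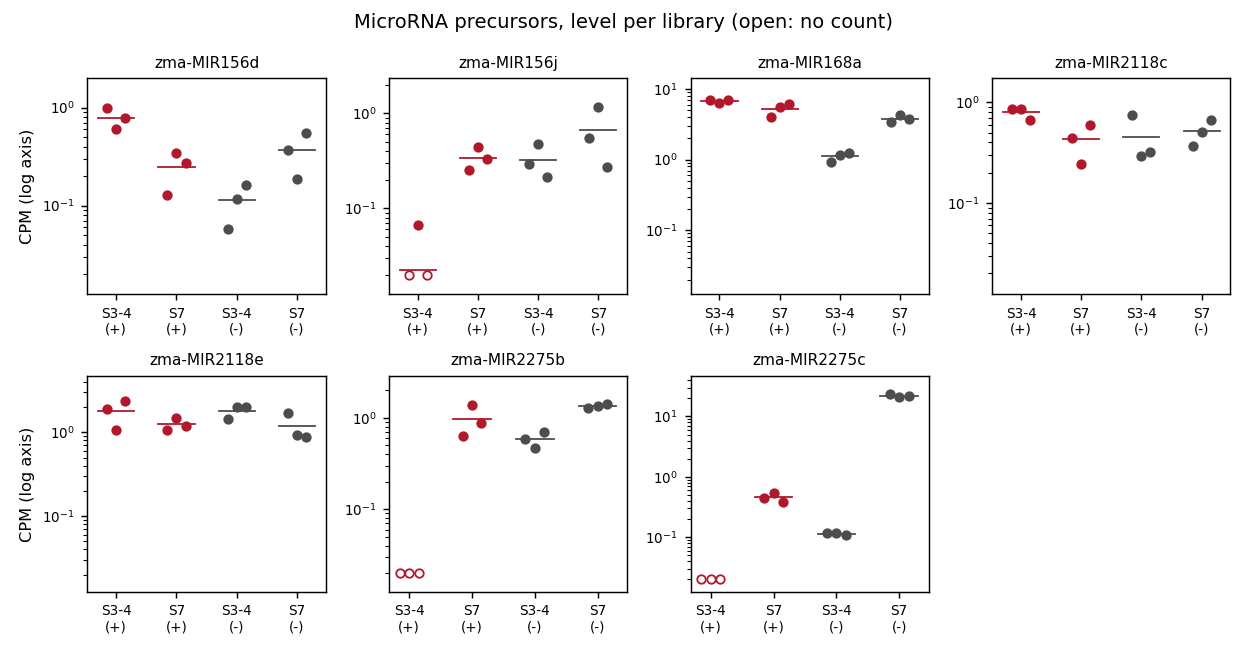
CPM on a log axis (vertical) in each library of 4 groups (horizontal), S3-4 and S7 of ZmCCT(+) in red and of ZmCCT(-) in grey, for the 7 tested microRNA precursors, with horizontal lines at group means and open points for no count. zma-MIR2275b and zma-MIR2275c have no count in any of the 3 S3-4 ZmCCT(+) libraries.

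Of 1635 other non-coding RNA genes in the tables, with identifiers that begin with ENSRNA, 99 were tested. Of these, 53 passed in ZmCCT(+), with 27 rising and 13 falling at least 2-fold, beside 81.9%, 21.0% and 20.3% of all tested genes. Their median log2 fold change was 0.06 in ZmCCT(+) and 0.38 in the control. The 2 highest by fold were ENSRNA049456320 (chromosome 4, 173512580 to 173512654), with 0, 0 and 1 counts at S3-4 and 4, 11 and 12 at S7 (edgeR adjusted p = 4.36e-05), and ENSRNA049479518 (chromosome 6, 92505358 to 92505446), with 1, 0 and 0 counts and then 6, 10 and 10 (edgeR adjusted p = 3.97e-05). Both were without overlap between S3-4 and S7. The lowest was ENSRNA049478292 (chromosome 6, 13586174 to 13586329), with 35, 35 and 5 counts and then 8, 0 and 1, where the groups overlapped (edgeR adjusted p = 0.0113, and 0.0619 with only the ZmCCT(+) ends in the fit). ENSRNA049456769 (chromosome 5, 61281948 to 61282047) fell from 5, 5 and 14 counts to 2, 1 and 0 (edgeR adjusted p = 0.000391) and had no count in the control at either end, so its net changes were not compared.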

How the data were processed

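Each stage has 1 deposited table of raw counts per gene, and the authors did not normalise these counts. The deposited tables per library give TPM, scaled by the authors, and coverage, a signal of read depth along the gene, per the file headers. The submitters' processing notes name Bowtie2, StringTie and DESeq2. Versions, settings, strand counting and the handling of reads that map to several genes are unknown here, so paralogs and overlapping genes are uncertain. The tables also hold 18 columns of FPKM, which were not used. Count columns headed WT were taken as ZmCCT(-) and those headed OE as ZmCCT(+). They were checked against coverage over 21885 genes, both as log2 deviations of each library from its group mean. These deviations correlated best with those of the assigned sample for all 18 columns (r 0.791 to 0.864, others up to 0.0807).

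Low genes were removed by filterByExpr in edgeR 4.0.16 on R 4.3.3 (minimum count 10, minimum total 15). This kept 24694 of 45578 genes and 99.9% of the counts. After TMM scaling, edgeR's quasi-likelihood F test (robust) was run on 1 fit of 18 libraries and 6 groups, with 12 residual degrees of freedom and a coefficient of variation of 3.20%. Benjamini-Hochberg adjustment covered all tested genes. The SE is the size of the log2 fold change divided by the square root of F. The comparisons were S7 against S3-4 in ZmCCT(+), the same in ZmCCT(-), and their difference. Where a group had no count, folds are bounds against a floor of 3 counts over its 3 libraries, and ratios have exact Clopper-Pearson intervals at 95%. Floors and intervals cover counting error only. A bound against the floor is not a 95% limit, and the exact lower limits were smaller. They were 1062-fold for Zm00001d024119, 136-fold for Zm00001d020944 and 294-fold for Zm00001d044461. For zma-MIR2275b and zma-MIR2275c they were 12.2-fold and 5.42-fold. In 12 of 12 replicate pairs counts differed by more than counting noise (chi-square over degrees of freedom 1.66 to 2.92). The tests were tested on simulated data.

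The genes named were the 2 with the highest and 2 with the lowest net change among called genes with at least 1 CPM in the higher group and no overlap; for the difference, the 2 highest and 2 lowest with 10 or more counts in each library and at least 10 CPM in one group; all tested microRNA precursors; and the extreme ENSRNA genes. Other genes were named after their values were seen. The groups compared and the lists were chosen with earlier results of these data known. Of 22 gene lists by symbol, 0 had a member that matched: 0 of 43789 Zm00001d identifiers and 153 of 154 precursors were found in the RefSeq gene table of assembly Zm-B73-REFERENCE-NAM-5.0. Alternatives were size factors and test of DESeq2 1.42.0, upper-quartile scaling, limma-voom, limma-trend on TPM with pseudocounts 1 and 0.1 (limma 3.58.1), a stricter filter (100 and 150) or none, only the libraries compared, a replicate block, an assumed spread of 20% with edgeR's likelihood ratio test, an adjusted p below 0.01, glmTreat at 2-fold, other limits for silence, and each library left out.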

Additional observations from a re-analysis of the deposited data

Results flagged for a closer look

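The net change from S3-4 to S7 differed between ZmCCT(+) and ZmCCT(-) for 18283 genes by edgeR's test of the difference, and for the following named genes (log2 fold change in ZmCCT(+) minus that in ZmCCT(-)). The difference was 4.06 for Zm00001d024119, with no count at S3-4 in ZmCCT(+), so that its size depends on the prior count. Its sign changed on log2(TPM + 1), to -1.44 (limma-trend adjusted p = 1.98e-12). Among genes that fell in ZmCCT(+) the edgeR difference was -11.78 for Zm00001d024543, with 1 count at S7, and -11.84 for Zm00001d044461, with none. These sizes depend on the prior count in the same way. The edgeR difference was 6.35 for Zm00001d021447 and 5.43 for Zm00001d043235, which rose in ZmCCT(+). For Zm00001d034017 and Zm00001d011461, which rose in the control, it was -6.47 and -5.47. Among non-coding genes it was 2.87 for ENSRNA049479518, -3.20 for zma-MIR156d, -2.13 for zma-MIR168a and 5.99 for zma-MIR2275b, the last with no count at S3-4 in ZmCCT(+). The call for ENSRNA049479518 (edgeR adjusted p = 0.0253) was lost without S3-4 ZmCCT(-) replicate 3 (0.0946), S3-4 ZmCCT(+) replicate 2 (0.0797) or 3 (0.0881), and by limma-trend on log2(TPM + 1) (0.0588). No group has more than 3 libraries, so single outlying libraries were not looked for.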

How the results depend on the processing

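The replicate block gave 20206 calls in ZmCCT(+), 5188 of them at least 2-fold higher and 5004 lower. Deviations of same-numbered libraries correlated at -0.0289 to 0.0196, and the labels do not say whether the replicate numbers pair libraries. Calls in ZmCCT(+) ran from 14847 with an assumed spread of 20% to 20977 without a filter. Leaving out 1 library gave 19700 to 19835, and for the 2-fold counts 5129 to 5149 and 4955 to 5042. Upper-quartile scaling raised the overall median by 0.105 and gave 5641 and 4538. On log2(TPM + 1), 5188 genes rose and 3239 fell 2-fold in ZmCCT(+), and 1317 rose and 874 fell in ZmCCT(-). With pseudocount 0.1 the median moved by 0.282, 61.0% of calls were higher, and 6441 genes rose and 3805 fell 2-fold in ZmCCT(+). Neither TPM setting carried TMM scaling. An assumed spread of 20% left 6084 calls in ZmCCT(-) and 10754 differences. The stricter filter left 1112 control rises and 3143 differences below. glmTreat left 1193 and 800 control calls. Holding groups at 3 counts, an alternative chosen after seeing the data, left 20 of 60 fitted 64-fold rises and 55 of 94 falls in ZmCCT(+) (44 without the chromosome 3 stretch) and 37 of 72 rises in ZmCCT(-). Silence at 0 counts left 20 genes switched on and 49 off, and expression at 30 left 25 and 52. Without 1 library, 96 to 155 came on and 139 to 193 went off, since the limit of 3 counts then covers fewer libraries. The following turned sign, and the cause was not tested: zma-MIR168a in ZmCCT(+) (0.063 and 0.065 on TPM with pseudocounts 1 and 0.1); the difference for Zm00001d020944 (-0.35 by the DESeq2 test, -1.70 by limma-voom, -2.68 and -1.93 on TPM with pseudocounts 1 and 0.1) and for Zm00001d024119 (-1.44 on log2(TPM + 1)); and that for zma-MIR2118e, from -0.10 (without S3-4 ZmCCT(+) replicate 2) to 0.50 with 1 library left out, -0.00381 without S7 ZmCCT(-) replicate 3. Counts set the limit: a precursor with fewer than 10 counts in a group supports only large changes.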

Other observations

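Several precursors that the low-count filter left out had values worth a second look, tested without the filter by edgeR with adjustment over all genes. zma-MIR408b, of a family that targets copper proteins, went from 1, 0 and 0 counts at S3-4 in ZmCCT(+) to 11, 5 and 9 at S7 (adjusted p = 0.000669), with 0 and 4 counts in the control. zma-MIR528b had 5, 2 and 4 counts in S7 ZmCCT(+) (edgeR adjusted p = 0.00869) and no count in the other 5 groups. zma-MIR166a, of the family that targets HD-ZIP III transcription factors, fell from 9, 15 and 11 counts to 1, 2 and 8 (edgeR adjusted p = 0.00838). Its counts over the 3 control libraries fell too, from 8 to 1. zma-MIR164c went from none to 1, 13 and 1 counts (edgeR adjusted p = 0.00152), a rise that rests on 1 library, with 2 and 8 counts in the control. zma-MIR168b went from 32 to 17 counts and missed the threshold (edgeR adjusted p = 0.104).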
